A study of Homo sapiens with 4 samples.

Results

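RNA-seq was used to ask how knockdown of YEATS2, a reader of histone acylation, changed the transcripts of the YAP and TEAD transcription module in BICR10, a human line labelled as head and neck cancer. The module comprised 10 genes of the 60623 in the count files, chosen by symbol: the coactivators YAP1 and WWTR1 (which encodes TAZ), the DNA-binding factors TEAD1, TEAD2, TEAD3 and TEAD4, and the target genes CCN1, CCN2, ANKRD1 and AMOTL2. The cells carried a lentiviral control hairpin (shControl, 2 libraries) or a lentiviral hairpin against YEATS2 (shYEATS2, 2 libraries), and all had been transduced and selected as populations. The study describes its replicates in general as biological. The labels of these 4 libraries do not say which cultures or which YEATS2 hairpin each came from, so the p-values below measure the spread between these libraries only.

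YAP1 and TAZ are the transcriptional coactivators at the end of the Hippo pathway. The kinases MST1 and MST2 (STK4 and STK3) activate LATS1 and LATS2, which phosphorylate YAP1 and TAZ and hold them in the cytoplasm. Unphosphorylated, they enter the nucleus and bind TEAD factors, which place them on DNA at the motif GGAATG. The secreted matricellular proteins CCN1 (CYR61) and CCN2 (CTGF), the ankyrin-repeat protein ANKRD1 and the angiomotin AMOTL2, itself a feedback inhibitor of YAP1, are the usual transcript readouts of this module. RNA levels report neither the phosphorylation nor the location of YAP1 and TAZ.

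Reads assigned to genes numbered 47297970 and 39824898 for shControl, and only 24072396 and 11334133 for shYEATS2. Values are given as CPM, that is, counts relative to the library total after scaling by the trimmed mean of M-values (TMM). YEATS2 itself stood at 66.1 and 66.7 CPM in shControl and at 29.3 and 29.1 CPM in shYEATS2, or 43.95% of control. This was a log2 fold change of -1.19 (SE 0.078), with an adjusted p of 3.6e-21 in edgeR's quasi-likelihood test. Several defining markers went against the label. The squamous and epithelial genes TP63, KRT17, KRT14, EPCAM and CDH1 were at or near 0 in all 4 libraries (at most 2.84 CPM, CDH1 in shYEATS2 1), whereas KRT8 (269 and 264 CPM, then 123 and 115), KRT18 (110.1 and 111 CPM, then 78.2 and 72.3), SFN (126 to 136 CPM) and PERP (103 to 128 CPM) were present. The squamous keratin KRT5 was at 16.4 and 15.0 CPM in shControl and at 1.03 and 1.36 CPM in shYEATS2, and DSP at 5.56 and 5.90 CPM and then 1.42 and 1.53 CPM. Collagen genes listed as fibroblast markers were abundant, with COL1A1 at 2845 and 2747 CPM in shControl and 927 and 855 CPM in shYEATS2, and COL1A2 at 2623 and 2609 CPM falling to 847 and 797 CPM. Of 10 fibroblast markers tested, 9 fell and 0 rose by edgeR (0 at an unadjusted p under 0.05, and 0 by DESeq2 or limma-voom), where 23.6% of all genes tested were called lower and 22.6% higher. The summed level of that list was 7291 to 7390 CPM in shControl and 2254 to 2394 CPM in shYEATS2, although THY1 was at or below 0.287 CPM throughout. Among 9 epithelial markers tested, 6 fell and 2 rose, the latter near the 22.6% of all genes (the summed level went from 637 to 650 CPM to 447 to 472 CPM). The 2 that rose were CDH1 (0.353 and 0.318 CPM against 2.84 and 2.12 CPM, log2 fold change 2.91, SE 0.36) and PERP (0.19, SE 0.067). Endothelial markers summed to 31.4 to 52.1 CPM, mostly KDR and EGFL7, and CDH5, TIE1 and CLDN5 were at or near 0. Leukocyte markers summed to at most 2.04 CPM, most of it CD14. The markers therefore moved with the knockdown, and their part in the results below was not tested. In these bulk libraries fewer cells of a type and less RNA per cell cannot be told apart.

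The sequences before the start sites are shown first because TEAD factors reach DNA through the motif searched for. RefSeq promoter windows of GRCh38.p14 were matched for 7 of the 10 genes, and the 250 bases before each start were searched on both strands for the TEAD motif GGAATG, the AP-1 motif TGANTCA and the CArG box bound by serum response factor. The 3 windows with a TEAD motif are printed 5′ to 3′ on the strand of the gene, with that motif in capitals. They lie at chr6:131951373-131951622 (minus strand) for CCN2, chr10:90921088-90921337 (minus strand) for ANKRD1 and chr11:102110197-102110446 (plus strand) for YAP1.
CCN2: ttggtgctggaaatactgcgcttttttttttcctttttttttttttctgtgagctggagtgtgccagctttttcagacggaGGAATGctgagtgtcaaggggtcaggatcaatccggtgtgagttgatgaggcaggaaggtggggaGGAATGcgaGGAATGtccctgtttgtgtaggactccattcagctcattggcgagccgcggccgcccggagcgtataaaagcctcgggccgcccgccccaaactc
ANKRD1: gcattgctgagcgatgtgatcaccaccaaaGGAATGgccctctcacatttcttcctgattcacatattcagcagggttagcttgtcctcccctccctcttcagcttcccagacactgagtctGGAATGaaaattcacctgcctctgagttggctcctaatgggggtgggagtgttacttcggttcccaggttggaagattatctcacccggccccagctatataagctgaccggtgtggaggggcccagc
YAP1: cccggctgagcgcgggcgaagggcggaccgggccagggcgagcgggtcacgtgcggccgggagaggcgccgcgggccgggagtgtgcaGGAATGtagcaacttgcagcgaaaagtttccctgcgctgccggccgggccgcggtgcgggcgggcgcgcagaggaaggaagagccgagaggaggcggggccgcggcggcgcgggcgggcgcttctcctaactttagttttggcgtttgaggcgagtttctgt

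CCN2 had 3 TEAD motifs, at bases 169 to 164, 104 to 99 and 95 to 90 before the start. ANKRD1 had 2, at bases 220 to 215 and 128 to 123, with an AP-1 motif (TGATTCA) between them at bases 195 to 189. YAP1 had a single TEAD motif at bases 162 to 157. The windows of WWTR1, TEAD2, TEAD3 and AMOTL2 held no TEAD and no AP-1 motif, and no window held a CArG box. For WWTR1, TEAD2 and AMOTL2 the RefSeq start lies inside the gene as annotated by GENCODE, so their windows are not the ones before the outermost start. Of 35116 RefSeq promoter windows of the same length, 11.9% held the TEAD motif, 6.57% the AP-1 motif and 1.16% a CArG box. These are matches of letters, and no binding was measured. CCN1, TEAD1 and TEAD4 were not matched.

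**Figure D1:**
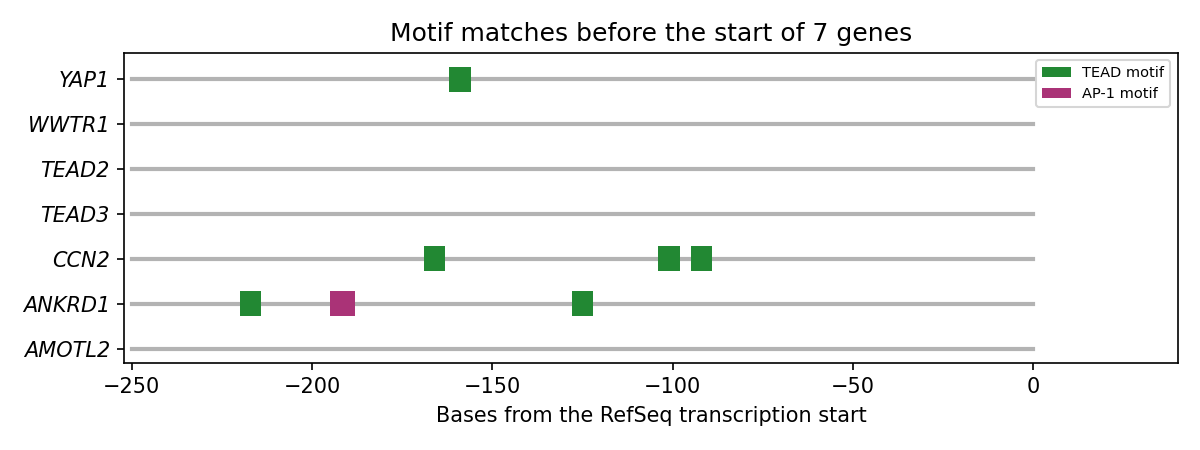
Position of motif matches in the 250 bases before the RefSeq start of 7 genes. The x axis gives bases from the start, grey lines the windows, green boxes TEAD motifs and the purple box the AP-1 motif. CCN2 has 3 TEAD motifs, ANKRD1 has 2 and YAP1 has 1, and the other 4 windows are empty.

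All 10 genes had enough counts to be tested, the lowest being 172 counts for TEAD4 in shYEATS2 2. All 4 target genes rose upon YEATS2 knockdown, from 1.51-fold for AMOTL2 to 5.12-fold for CCN2. TEAD1 and TEAD2 rose by less, and YAP1, WWTR1, TEAD3 and TEAD4 did not pass the test. In total 6 of the 10 were called higher by edgeR at an adjusted p under 0.05 and 0 were called lower (0 at an unadjusted p under 0.05, 0 by DESeq2 and 0 by limma-voom), where across the 17058 genes tested 22.6% were called higher and 23.6% lower. With library totals alone as the scale, the median log2 fold change of all genes moved from -0.01 to 0.13, and the calls moved from 3857 higher and 4019 lower to 5441 higher and 2567 lower. Both shYEATS2 libraries lay above both shControl libraries for 8 of the 10, against 35.3% of genes tested. They lay below for WWTR1 only, against 36.3% of genes tested, and the groups overlapped for TEAD3. At least a 2-fold rise was called for CCN1, CCN2 and ANKRD1, a class that held 5.99% of genes tested. The median log2 fold change of the 10 was 0.39, beside the -0.01 of all genes tested.

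**Figure D2:**
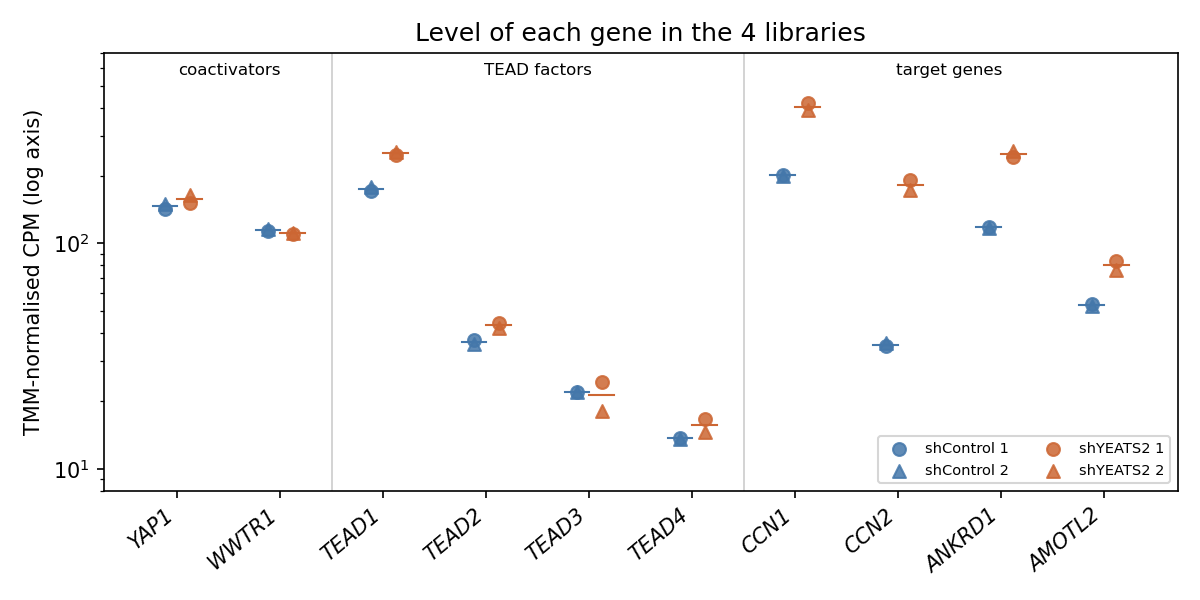
TMM-normalised CPM (log axis) of the 10 genes in each library, grouped by role. Circles are replicate 1, triangles replicate 2, and bars the group means of 2 libraries. The 4 target genes and TEAD1 sit higher in both shYEATS2 libraries, CCN2 by the widest margin (34.9 and 36.2 CPM against 191 and 172 CPM), and the TEAD3 libraries overlap.

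Of the coactivators, YAP1 (chr11:102110447-102233424) was measured at 142 and 150.1 CPM in shControl and at 152 and 165 CPM in shYEATS2. The groups did not overlap, but their nearest libraries differed by only 0.014 on the log2 scale. Its log2 fold change was 0.11 (SE 0.063, 95% interval -0.01 to 0.24, adjusted p = 0.14 in edgeR). Relative to the median of all genes it was 0.12 under TMM and 0.12 under library totals, although it passed the threshold with library totals (0.24, adjusted p = 0.0013). With a library left out, the log2 fold change of YAP1 ranged from 0.049 to 0.16. WWTR1 (chr3:149517235-149736714) was at 114 and 116 CPM in shControl and at 110.0 and 112 CPM in shYEATS2. The difference was small and the other way round, with a log2 fold change of -0.06 (SE 0.064, 95% interval -0.18 to 0.07, adjusted p = 0.50), and it took the opposite sign under library totals (0.08). These intervals leave room for a change of up to 0.24 for YAP1 and of -0.18 for WWTR1 on the log2 scale.

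The TEAD factors carry the DNA-binding TEA domain of the complex, and the 4 paralogs did not move alike. TEAD1 (chr11:12674421-12944737) had the highest level of them per length (below), at 171 and 178 CPM in shControl and 247 and 255 CPM in shYEATS2. The groups did not overlap and differed 1.44-fold (log2 fold change 0.52, SE 0.060, adjusted p = 2.5e-11 in edgeR). TEAD2 (chr19:49340595-49362457) was at 37.2 and 35.7 CPM against 44.5 and 42.3 CPM. This was a 1.20-fold rise (log2 fold change 0.26, SE 0.079, adjusted p = 0.0051), and the call was lost with DESeq2 (adjusted p = 0.067). With a library left out, the log2 fold change of TEAD2 ranged from 0.20 to 0.28. TEAD3 (chr6:35473597-35497079) stood at 21.9 and 21.99 CPM in shControl and at 24.4 and 18.0 CPM in shYEATS2. The shYEATS2 libraries thus lay on both sides of the control (log2 fold change -0.01, 95% interval -0.21 to 0.19, adjusted p = 0.94). A single library decided its value: without shYEATS2 1 it was -0.30, and without shYEATS2 2 it took the opposite sign (0.15), as it did under library totals, upper-quartile scaling and thinned counts. TEAD4 (chr12:2959330-3040676) was the lowest of them in shControl per kilobase of merged exons (below). Its levels were 13.7 and 13.6 CPM against 16.6 and 14.6 CPM (log2 fold change 0.21, 95% interval -0.0046 to 0.43, adjusted p = 0.10). It passed the threshold under library totals (0.35, adjusted p = 0.0090), and its log2 fold change ranged from 0.082 to 0.28 with a library left out.

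**Figure D3:**
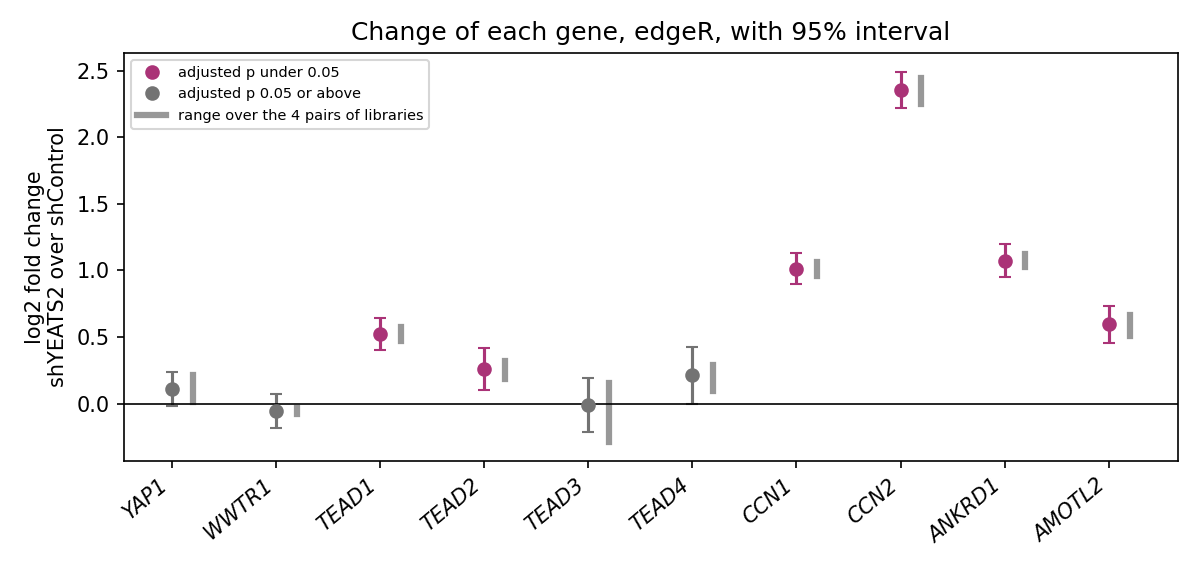
Log2 fold change of the 10 genes, shYEATS2 over shControl, from edgeR on 2 libraries per group. Points are estimates with 95% intervals, purple where the adjusted p was under 0.05, and grey bars beside them the range over the 4 pairs of libraries. CCN2 (2.36) stands apart from CCN1 (1.01) and ANKRD1 (1.07), then AMOTL2 (0.59) and TEAD1 (0.52).

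CCN2, a secreted heparin- and integrin-binding protein (chr6:131948176-131951372), showed the widest difference of the 10 genes. Its raw counts were 1585 and 1369 under shControl and, despite the lower depth, 4831 and 2032 under shYEATS2. In CPM this was 34.9 and 36.2 (35.6 ± 0.91, SD, n = 2) against 191 and 172 (182 ± 12.9, SD, n = 2). Every shYEATS2 value exceeded every shControl value, by 2.25 to 2.45 on the log2 scale. The fitted log2 fold change was 2.36 (SE 0.069, 95% interval 2.22 to 2.49, adjusted p = 5.4e-40 in edgeR). It ranked 185 among the rises of the 17058 genes, and 21 among the 10745 with a mean of at least 5 CPM. Its window, shown above, held the most TEAD motifs of the 7 searched. Whether the number of motifs goes with the size of a rise was not tested.

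CCN1 (chr1:85580761-85584589), a matricellular relative of CCN2, stood at 202 and 199.98 CPM in shControl (201 ± 1.25, SD, n = 2) and at 418 and 392 CPM in shYEATS2 (405 ± 18.9, SD, n = 2). The difference was 2.02-fold (log2 fold change 1.01, SE 0.059, adjusted p = 1.1e-23). ANKRD1 (chr10:90912096-90921087), a nuclear and sarcomeric ankyrin-repeat protein, was at 118.7 and 117.5 CPM in shControl (118.1 ± 0.90, SD, n = 2) and at 242 and 256 CPM in shYEATS2 (249 ± 10.02, SD, n = 2). It rose 2.11-fold (log2 fold change 1.07, SE 0.061, adjusted p = 2.8e-24). AMOTL2 (chr3:134355347-134375479), a junctional scaffold that binds YAP1, was at 53.6 and 52.8 CPM against 83.6 and 76.4 CPM. Its rise of 1.51-fold (log2 fold change 0.59, SE 0.070, adjusted p = 5.8e-11) was the smallest of the 4 targets. For these 4 genes and TEAD1 the direction held in every setting tried, each left-out library included. The call held in every setting that kept all 4 libraries. Leaving out a library leaves a group with a single library, so only the effect size is read from such a fit.

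Ratios within a library do not depend on how libraries are scaled, and a change in them does not depend on gene length. They were taken on CPM per kilobase of merged exons and given as log2 values. The CCN2 to YAP1 ratio was -0.59 and -0.62 in shControl and 1.76 and 1.499 in shYEATS2, a difference of 2.24. Relative to TEAD1, CCN2 went from -0.10 and -0.10 to 1.82 and 1.63. CCN1 relative to TEAD1 went from 1.77 and 1.70 to 2.30 and 2.15, and ANKRD1 relative to TEAD1 from 2.05 and 1.98 to 2.55 and 2.58. These 3 targets therefore rose by more than TEAD1 did, in both libraries. The AMOTL2 to TEAD1 ratio overlapped between the groups (-0.95 and -1.03 against -0.84 and -1.02), as did the ANKRD1 to CCN1 ratio (0.28 and 0.28 against 0.26 and 0.43). CCN2 relative to CCN1 went from -1.87 and -1.80 to -0.47 and -0.52. TEAD1 relative to YAP1 went from -0.49 and -0.52 to -0.06 and -0.13. With 2 libraries against 2, an exact two-sided permutation test of such a ratio cannot go below p = 0.333, so these differences are described and not tested.

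Levels of different genes were compared only per length. In shControl the order by mean CPM per kilobase of merged exons was ANKRD1 (65.98 ± 0.50, SD, n = 2), CCN1 (54.3 ± 0.34), YAP1 (23.1 ± 0.90), TEAD1 (16.3 ± 0.41), CCN2 (15.2 ± 0.39), WWTR1 (13.8 ± 0.17), TEAD2 (12.2 ± 0.36), AMOTL2 (8.21 ± 0.092), TEAD3 (7.19 ± 0.033) and TEAD4 (5.998 ± 0.028). No neighbours in that order overlapped between the 2 libraries. In shYEATS2 CCN2 stood next, at 77.7 ± 5.53 CPM per kilobase, behind ANKRD1 (139 ± 5.60) and CCN1 (110 ± 5.12) and ahead of YAP1 (25.05 ± 1.46). There TEAD3 (6.94 ± 1.48) and TEAD4 (6.86 ± 0.63) overlapped. The order also depended on the length used. With the MANE Select transcript, a single representative transcript per gene, CCN1 (88.2 ± 0.55) stood above ANKRD1 (65.98 ± 0.50) in shControl and CCN2 (15.2 ± 0.39) fell behind WWTR1 (22.8 ± 0.27) and TEAD2 (16.8 ± 0.49). On that length TEAD3 (7.34 ± 0.034) was below TEAD4 (7.98 ± 0.037) in shControl. Which transcripts the cells used was not measured.

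Summed per kilobase, the 4 TEAD genes reached 41.7 and 41.8 CPM in shControl and 53.3 and 50.4 CPM in shYEATS2. TEAD1 made up 38.4% and 39.7% of that sum in shControl and 43.3% and 47.4% in shYEATS2, whereas the share of TEAD3 went from 17.2% and 17.3% to 15.0% and 11.7%. Over the 4 libraries the share of TEAD2 ranged from 28.0% to 29.9% and that of TEAD4 from 12.7% to 14.4%. YAP1 made up 62.2% and 63.1% of the YAP1 and WWTR1 sum in shControl and 64.6% and 66.1% in shYEATS2, while that sum overlapped between groups (36.2 and 37.7 against 37.2 and 39.4 CPM per kilobase). Of CCN1 and CCN2 together, CCN2 took 21.5% and 22.3% in shControl and 41.9% and 41.0% in shYEATS2, while their sum went from 69.5 and 69.6 to 195 and 180 CPM per kilobase. These sums and shares rest on merged exons and depend on the length used. Per kilobase of the MANE Select transcript, mean CCN1 and CCN2 were 88.2 and 15.2 CPM in shControl and 178 and 77.7 CPM in shYEATS2. On that length YAP1 and WWTR1 were at 27.0 and 22.8 CPM in shControl.

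**Figure D4:**
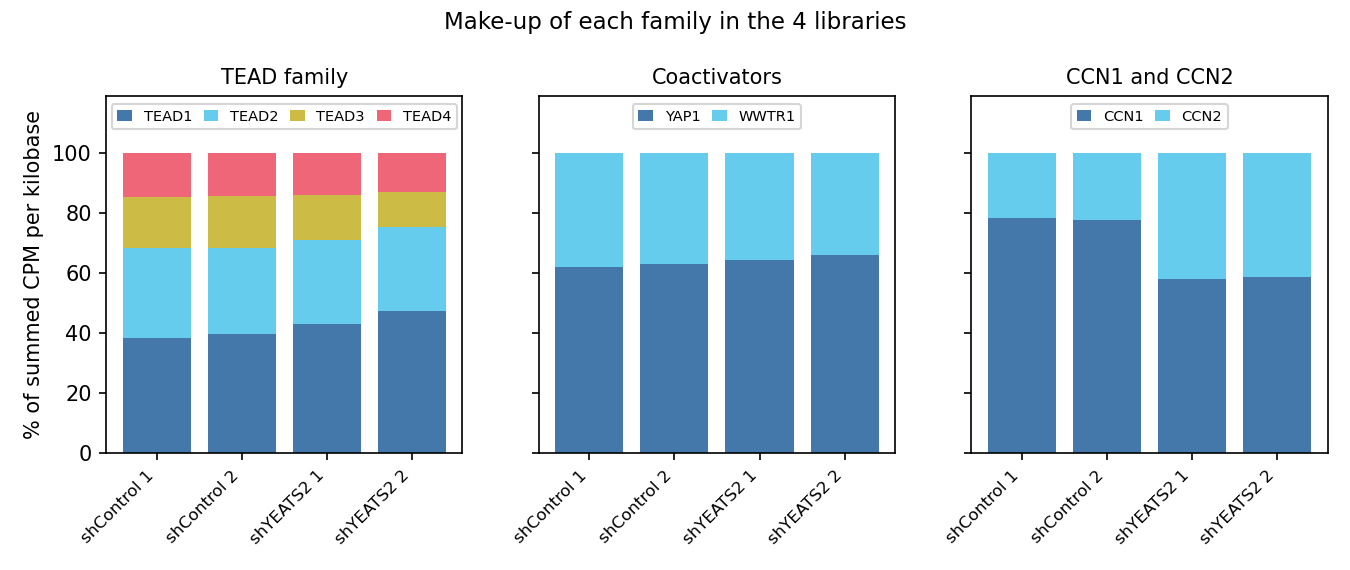
Share of each gene in the summed CPM per kilobase of merged exons of its family, in percent, for the 4 libraries. The shares depend on the length used. CCN2 takes 21.5% and 22.3% of the CCN1 and CCN2 sum in shControl and 41.9% and 41.0% in shYEATS2, and TEAD1 takes 38.4% to 39.7% of the TEAD sum in shControl and 43.3% to 47.4% in shYEATS2.

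The other genes of the pathway were read from lists drawn up by function. Of 34 Hippo kinases and upstream regulators tested, 12 were called higher and 6 lower, with a median log2 fold change of 0.04, beside the 22.6% and 23.6% of all genes. RASSF1, a scaffold that binds MST1 and MST2, was at 11.9 and 11.9 CPM in shControl and at 25.8 and 27.5 CPM in shYEATS2 (log2 fold change 1.16, SE 0.10, adjusted p = 8.1e-16). AJUBA, a LIM protein that binds and restrains LATS kinases, was at 17.0 and 19.2 against 35.8 and 32.0 CPM (0.92, SE 0.092). LATS1 itself rose from 32.8 and 36.5 to 54.9 and 55.4 CPM (0.67, SE 0.077, adjusted p = 3.4e-11), whereas LATS2, also a target of YAP1, fell from 33.6 and 36.5 to 28.3 and 31.3 CPM (-0.24, SE 0.085, adjusted p = 0.016). The kinases STK4 (84.7 and 86.4 against 104 and 103 CPM) and STK3 (33.5 and 34.6 against 39.8 and 44.7 CPM) and the tumour suppressor NF2 (56.2 and 59.8 against 74.5 and 68.9 CPM) were also called higher. These 3 were named after their values were seen. MOB1A, a cofactor of LATS kinases, fell from 266 and 276 to 178 and 189 CPM (-0.56, SE 0.060, adjusted p = 2.6e-12). Its paralog MOB1B, named after its values were seen, did not pass the test (30.6 and 27.2 against 26.5 and 32.6 CPM). The polarity protein LLGL1 (39.1 and 42.9 against 34.8 and 28.6 CPM) and the giant cadherin FAT1 (295 and 303 against 236 and 245 CPM) fell by less than MOB1A. Members of the same pathway thus went both ways.

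A wider signature of YAP and TAZ targets, without the 10 genes above, held 18 genes. Of these, 10 passed the test upwards and 3 downwards, with a median log2 fold change of 0.28, where 22.6% of all genes were called higher and 23.6% lower. GADD45A, a stress-induced growth-arrest gene, had the largest rise, from 80.2 and 78.0 CPM to 360 and 368 CPM (2.20, SE 0.062, adjusted p = 1.2e-40). NT5E, the cell-surface enzyme CD73, went from 35.3 and 38.7 to 120.0 and 124 CPM (1.72, SE 0.070), and the secreted protein FJX1 from 18.3 and 19.1 to 50.4 and 50.4 CPM (1.43, SE 0.083). Going the other way, F3, which encodes tissue factor, fell from 287 and 291 to 156 and 168 CPM (-0.84, SE 0.061, adjusted p = 4.0e-19). ARHGEF17 fell from 39.8 and 39.6 to 33.8 and 29.1 CPM (-0.32, SE 0.083), and LATS2 was the third. The list shares LATS2 and PTPN14 with the Hippo list.

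Cofactors of TEAD and paralogs of the 10 genes split evenly, with 4 of 9 tested called higher and 4 lower (median log2 fold change -0.23), beside 22.6% and 23.6% of all genes. Apart from CCN4, VGLL3 and VGLL4, every gene called was below 5 CPM in every library. DESeq2 called 2 higher and 2 lower, and a minimum of 10 counts in every library left 3 higher and 2 lower. CCN4 (WISP1), a paralog of CCN1 and CCN2, went against them, from 203 and 202 CPM in shControl to 56.6 and 55.2 CPM in shYEATS2 (-1.86, SE 0.067, adjusted p = 6.4e-35). CCN5 also fell but from only 4.34 and 3.20 CPM, and CCN3 rose at 0.838 to 2.12 CPM. These latter 2 were named after their values were seen. The TEAD-binding cofactors VGLL3 (47.1 and 51.2 against 60.4 and 64.9 CPM, log2 fold change 0.35) and VGLL4 (48.0 and 47.2 against 53.5 and 55.3 CPM, 0.19) were called higher. AMOT and AMOTL1, the paralogs of AMOTL2, stood at 0.170 to 0.904 CPM and 11.2 to 14.5 CPM and are also in the Hippo list. Both were likewise named with their values known. AMOT was called lower on 41 and 31 counts in shControl against 9 and 2 in shYEATS2, and AMOTL1 did not pass the test (-0.23, SE 0.12, adjusted p = 0.10).

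Serum response factor (SRF) and its MRTF cofactors share many cytoskeletal targets with YAP1. The list read here held such targets and also SRF, MRTFA and MRTFB themselves. Among 21 genes of that list tested, 4 were called higher and 11 lower, with a median log2 fold change of -0.23, against 22.6% higher and 23.6% lower among all genes. SRF was among those called higher (log2 fold change 0.31) and MRTFB among those called lower (-0.57), and MRTFA was not called. These regulators were named after their values were seen. TAGLN, an actin-binding protein of contractile cells, fell from 29.0 and 29.1 to 11.2 and 10.8 CPM (-1.39, SE 0.10, adjusted p = 9.2e-19). CALD1, caldesmon, fell from 413 and 422 to 252 and 276 CPM (-0.66, SE 0.060), and ACTB, cytoplasmic beta-actin, from 5165 and 5447 to 3597 and 3292 CPM (-0.62, SE 0.061). In the other direction, ACTG1, gamma-actin, rose from 698 and 743 to 1363 and 1256 CPM (0.86, SE 0.059, adjusted p = 2.6e-20). FHL2, a LIM-domain cofactor, rose from 16.6 and 17.9 to 35.7 and 32.1 CPM (0.99, SE 0.092), and CNN2, calponin 2, from 126 and 125 to 168 and 144 CPM (0.32, SE 0.065). More genes of this list thus fell than rose, in the same libraries in which the targets of YAP1 and TEAD listed at the outset rose. Whether these changes are linked or separate was not tested.

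Immediate-early genes, many of them AP-1 subunits and zinc-finger factors that answer within minutes to serum or stress, were read because they are induced by stimuli that also induce CCN1 and CCN2. Of 21 tested, 12 were called higher and 0 lower by edgeR (1 at an unadjusted p under 0.05, and 0 by DESeq2 or limma-voom). Over all genes these calls took 22.6% and 23.6%. The median log2 fold change of the list was 0.58. Both shYEATS2 libraries lay above both shControl libraries for 13 of the 21, against 35.3% of genes tested. They lay below for 2, against 36.3% of genes tested. ATF3, a stress-induced bZIP repressor, rose from 6.31 and 6.62 to 36.9 and 34.8 CPM (2.48, SE 0.10, adjusted p = 2.3e-31). KLF4 went from 20.1 and 19.6 to 60.2 and 52.7 CPM (1.52, SE 0.083) and KLF2 from 3.55 and 4.39 to 9.24 and 9.503 CPM (1.24, SE 0.15). EGR1 (-0.02, SE 0.091, adjusted p = 0.89) and FOS (-0.37, SE 0.26, adjusted p = 0.25), 2 widely used members of the class named after their values were seen, did not pass the test.

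**Figure D5:**
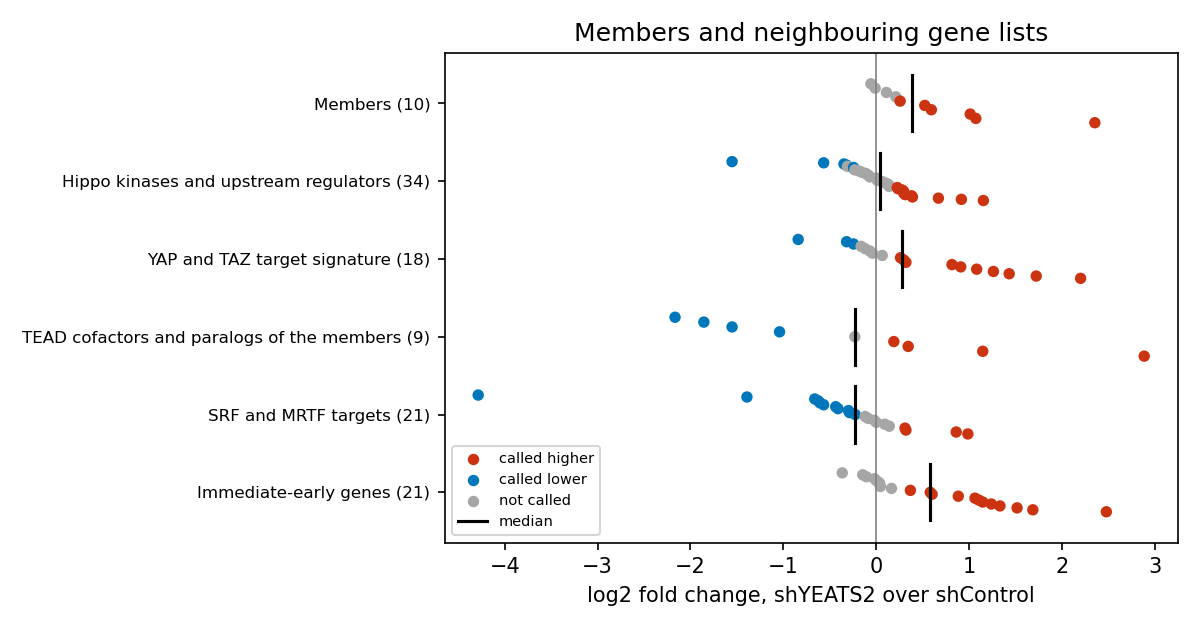
Log2 fold change (x axis) of each gene tested in the 10 members and 5 lists, with the number tested in brackets. Red points were called higher, blue lower and grey not called by edgeR, and black bars are medians (0.39 for the 10 genes and 0.04, 0.28, -0.23, -0.23 and 0.58 for the lists from top to bottom). The leftmost point of the SRF and MRTF list and the rightmost point of the cofactor list are genes at or below 1.19 CPM in every library. Their fitted values rest on very few counts.

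The genes most like CCN2 and ANKRD1 were sought among 10744 others with a mean of at least 5 CPM, by Euclidean distance between log2 CPM centred on each gene's mean over the 4 libraries. Nearest to CCN2 were the histone gene HIST1H2AC (distance 0.046), ATF3 (0.12) and MAFF (0.14), a small MAF factor. HIST1H2AC stood at 6.31 and 6.54 CPM in shControl and at 33.4 and 31.3 CPM in shYEATS2, and MAFF at 6.37 and 6.62 against 31.4 and 28.9 CPM. ATF3 was given above. Nearest to ANKRD1 were EXT1, a heparan sulfate polymerase (distance 0.029, 84.6 and 85.3 against 171 and 183 CPM), ZMYND8, a chromatin reader (0.031, 56.4 and 56.4 against 118.4 and 124 CPM), and AL033397.1 (0.051, 21.5 and 21.4 against 44.1 and 48.5 CPM). With 4 libraries in 2 groups, such likeness describes mainly the size of the group difference.

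Annotated genes overlap 6 of the 10 on the genome, most of them antisense RNAs such as WWTR1-AS1, and the strand setting of the counting was not given in the sources used here. None of these overlapping genes had more than 26 counts in a library. LINC01013, antisense to CCN2, was at 0 in all 4 libraries.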

How the data were processed

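Poly(A) RNA of BICR10 cells was sequenced as stranded 150 bp pairs. Per the labels and the methods of the study, reads were aligned to GRCh38 with STAR and counted per gene with HTSeq. The authors deposited raw counts per Ensembl gene, 1 file per library. Rows of reads assigned to no gene (15.3% to 16.5% of each file) were left out. The annotation release was not given in the sources used here. From these counts, edgeR 4.0.16 (R 4.3.3) fitted group only, with TMM, filterByExpr (17058 genes kept), robust quasi-likelihood tests and Benjamini-Hochberg adjustment over all genes, called at 0.05. Log2 CPM used a prior count of 2. SE was taken as the size of the log2 fold change over the square root of F. Replicates differed by more than counting noise (chi-square per degree of freedom 5.95 and 5.39), and each was counted as 1 sample. This does not show that they came from separate cultures. Their spread was small, with a common biological coefficient of variation of 4.9% in edgeR. Positions and exon lengths came from GENCODE 44, which held 60295 of the 60623 genes. The fit was tested on simulated counts in which few genes changed, as many up as down. How it does with as many changes as in these data was not tested. Alternatives were DESeq2 1.42.0, limma-voom 3.58.1, other scalings and filters, a stricter threshold, thinned counts, a replicate block and each library left out. The MANE Select length was added after the data were seen.

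The 10 genes and the lists were chosen with earlier results of these data known. Beyond the 10 and YEATS2, the text names from each of the 5 pathway lists up to 3 falls and 3 rises, the largest among genes called whose mean reached 5 CPM and whose groups do not overlap, the 2 most abundant genes of each marker list, and the 3 nearest profiles of the 2 members with the largest change. Others are said to be named after their values were seen, apart from markers used to check the label.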

Additional observations from a re-analysis of the deposited data

How the results depend on the processing

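Direction held for YEATS2, CCN1, CCN2, ANKRD1, AMOTL2 and TEAD1 in all 14 alternatives, and the call in each of them that kept every library. Fits with a library left out have a single library in a group, so only their effect sizes are given. With each library left out in turn the log2 fold change of CCN2 ranged from 2.26 to 2.42. Library totals alone gave 2567 genes called lower and 1 lower in the YAP and TAZ signature, with opposite signs for WWTR1 (0.078) and TEAD3 (0.12). TEAD3 also changed sign with upper-quartile scaling (0.0011) and thinned counts (0.027), and ranged from -0.30 to 0.15 with a library left out. DESeq2 called 2392 genes higher, and 2 higher and 2 lower among the TEAD cofactors and paralogs. A minimum of 10 counts in every library, which removes low genes, left 2 lower in that list. With a library left out, 0 to 1 of the 10 genes (TEAD3, without shYEATS2 1) and 0 to 2 immediate-early genes were called lower. No filter gave 1 immediate-early gene lower. The causes of these changes were not tested. Across genes, the differences between replicates 1 and 2 were not correlated between the groups (correlation -0.02). This cannot show whether libraries of the same number were prepared together. With a replicate block, 6 of the 10 genes were called higher, the log2 fold change of CCN2 was 2.35, and 1 immediate-early gene was called lower. Sequencing was shallower under shYEATS2, which cannot be told apart from the group.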
